A study of Mus musculus with 55 samples.

Results

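This comparison asked where p300 sat differently on the chromatin of mouse macrophages that met lipopolysaccharide (LPS) for 6 h together with 3'-sialyllactose (3'SL) rather than LPS alone. Its members are 4 of the 55 samples of the series: 2 p300 chromatin immunoprecipitation (ChIP-seq) libraries labelled 3'SL with LPS at 6 h and 2 labelled LPS at 6 h, each pair numbered replicate 1 and 2. Regions and genes were read within each replicate number, and those that moved alike in both are described. All 4 libraries came from bone marrow-derived macrophages of C57BL/6 mice, grown with medium from L cells as a source of M-CSF and starved of serum overnight. LPS was used at 10 ng/ml. The 3'SL dose was 100 µg/ml, and 3'SL is a milk sugar that carries sialic acid. Cells were fixed with disuccinimidyl glutarate and formaldehyde, and the labels list a pair of p300 antibodies for every library. The vehicle was PBS, with 1 library matched at 6 h, from replicate 2. Nothing in the labels says whether the replicates were separate animals or cultures, so p-values measure only the spread between libraries, which may be technical. In the main fits of p300, p-values and standard errors (SE) take that spread from all 14 libraries fitted, not only from these 4.

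p300 is a lysine acetyltransferase that sequence-specific factors recruit to enhancers and promoters, where it acetylates histone H3 at lysine 27 (H3K27ac) among other targets. LPS binds TLR4 on macrophages and releases NF-kB and AP-1 to the enhancers of cytokine and chemokine genes. LXR is a nuclear receptor that raises cholesterol export genes and is also known for restraining inflammatory genes in macrophages.

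The values are p300 tags in 200 bp around each of 97113 open chromatin regions, scaled to 10000000 tags per library and rescaled here so that libraries share a common level. The 4 libraries did not share a common enrichment. Of 13557960 tags in LPS replicate 1, 6.12% fell in the regions, against 4.77% of the input library. Of 14943307 in 3'SL with LPS replicate 1, 9.004% did. The replicate 2 libraries were shallower and more enriched, with 20.9% of 6375343 tags for LPS and 23.5% of 3844345 for 3'SL with LPS. LPS replicate 1 was thus the library closest to input, and every replicate 1 ratio of p300 at 6 h rests on it. The part of enrichment in the results was not tested.

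None of the regions passed the test. limma called 0 of 62225 regions (0%) at an adjusted p under 0.05, with 1835 at an unadjusted p under 0.05, and edgeR (1207 unadjusted) and DESeq2 (724 unadjusted) also called 0. With the replicate number as a block limma called 0, with 3864 unadjusted and a smallest adjusted p of 0.72. Without LPS replicate 1 the count was 0 of 61264, with 2054 unadjusted. Summed over each gene's regions, limma called 0 of 16220 genes (0%), with 360 at an unadjusted p under 0.05, and edgeR called 0, with 250. All values below are therefore descriptions of these 4 libraries, and no named region or gene passed.

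The regions that moved most alike in both replicates are shown first by their sequence. Regions averaging at least 50 were ranked by the smaller of the 2 within-replicate log2 ratios, and the 5 highest and 5 lowest are printed from the mm10 plus strand, each 201 bases and named by its nearest gene start. Capitals mark matches on either strand to AP-1 (TGANTCA), the IRF element (GAAANNGAA), the GC box (GGGCGG) or the NF-kB consensus. Of all 18908 regions averaging at least 20, 27.3% held an AP-1 match in the central 200 bp, 9.71% an IRF match, 13.6% a GC box and 7.34% an NF-kB match.

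Regions higher with 3'SL:
Cd44, chr2:102948666-102948866: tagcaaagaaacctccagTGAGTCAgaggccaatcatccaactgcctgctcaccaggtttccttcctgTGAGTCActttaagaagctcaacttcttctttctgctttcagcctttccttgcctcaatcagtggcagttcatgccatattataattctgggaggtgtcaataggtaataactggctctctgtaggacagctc
Adcy7, chr8:88281015-88281215: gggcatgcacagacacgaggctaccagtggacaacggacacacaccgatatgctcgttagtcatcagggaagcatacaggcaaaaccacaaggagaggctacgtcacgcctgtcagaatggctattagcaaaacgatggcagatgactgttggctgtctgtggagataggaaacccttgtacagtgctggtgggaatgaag
Rab7b, chr1:131690541-131690741: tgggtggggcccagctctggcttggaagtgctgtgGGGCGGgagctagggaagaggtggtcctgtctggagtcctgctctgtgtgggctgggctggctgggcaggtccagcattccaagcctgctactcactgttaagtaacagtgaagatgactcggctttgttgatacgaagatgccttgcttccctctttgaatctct
Kcnk13, chr12:100006945-100007145: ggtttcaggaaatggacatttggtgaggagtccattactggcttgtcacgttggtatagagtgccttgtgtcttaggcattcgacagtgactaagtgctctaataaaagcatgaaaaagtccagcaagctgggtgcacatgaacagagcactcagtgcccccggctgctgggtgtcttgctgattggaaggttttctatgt
Col15a1, chr4:47275077-47275277: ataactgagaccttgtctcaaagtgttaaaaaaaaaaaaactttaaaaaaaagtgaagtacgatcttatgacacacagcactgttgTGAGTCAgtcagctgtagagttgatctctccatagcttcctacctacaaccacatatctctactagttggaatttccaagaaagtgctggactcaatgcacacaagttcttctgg

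Regions lower with 3'SL:
Rassf3, chr10:121488719-121488919: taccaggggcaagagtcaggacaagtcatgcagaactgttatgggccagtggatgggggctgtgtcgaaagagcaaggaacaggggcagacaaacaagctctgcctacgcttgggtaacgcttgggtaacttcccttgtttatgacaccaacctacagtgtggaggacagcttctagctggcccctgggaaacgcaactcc
Mir3966, chr10:97389523-97389723: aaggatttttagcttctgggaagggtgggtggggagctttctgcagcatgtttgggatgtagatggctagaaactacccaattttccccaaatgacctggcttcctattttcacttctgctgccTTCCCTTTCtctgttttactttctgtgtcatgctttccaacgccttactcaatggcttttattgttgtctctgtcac
1700016G22Rik, chr13:5828894-5829094: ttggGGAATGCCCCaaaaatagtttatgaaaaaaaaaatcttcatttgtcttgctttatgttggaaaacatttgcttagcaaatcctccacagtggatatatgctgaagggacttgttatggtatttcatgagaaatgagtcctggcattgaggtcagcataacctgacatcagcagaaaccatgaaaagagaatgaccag
Akap7, chr10:25128623-25128823: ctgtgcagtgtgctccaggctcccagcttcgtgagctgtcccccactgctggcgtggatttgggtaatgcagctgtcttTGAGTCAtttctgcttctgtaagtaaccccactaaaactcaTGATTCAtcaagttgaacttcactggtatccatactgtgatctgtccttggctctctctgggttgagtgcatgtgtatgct
Lncpint, chr6:31176931-31177131: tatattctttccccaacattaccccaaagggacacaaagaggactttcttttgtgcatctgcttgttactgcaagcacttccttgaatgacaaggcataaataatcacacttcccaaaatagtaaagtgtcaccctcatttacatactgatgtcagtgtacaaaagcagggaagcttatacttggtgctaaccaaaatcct

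Among the 5 higher regions, the Cd44 region held 2 AP-1 matches, the Col15a1 region 1 AP-1 match and the Rab7b region 1 GC box. Among the 5 lower ones, the Akap7 region held 2 AP-1 matches, the Mir3966 region 1 IRF match and the 1700016G22Rik region 1 NF-kB match. A match is a string of letters here and says nothing on binding.

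Values are given as LPS alone and then LPS with 3'SL. The region first in this ranking on the higher side lay 47.1 kb upstream of Cd44, the hyaluronan receptor of leukocytes, in intergenic sequence. Its p300 signal was 22.8 and 69.9 in replicate 1, and 56.6 and 197 in replicate 2. Both libraries with 3'SL were above both without. The ratios were 1.57 (log2) in replicate 1, with a 95% counting interval from 0.71 to 2.65, and 1.78 in replicate 2, from 1.33 to 2.29. Intervals are exact Clopper-Pearson ones on the tags of each pair and cover counting error only. The named regions were chosen by these same ratios. Their intervals and the separation of their groups, here and below, are thus no independent support. The fitted difference was 1.68 ± 0.67 (SE, n = 2 against 2). The PBS library at 6 h stood at 212.

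Adcy7 encodes an adenylate cyclase of immune cells, and its region lay in intron 1 at chr8:88281015-88281215, annotated as an L1MA8 repeat. p300 was 30.4 and 82.7 in replicate 1, and 25.6 and 69.4 in replicate 2. The replicates gave 1.41 and 1.40 on the log2 scale, and the groups did not overlap. Rab7b, a small GTPase of late endosomes known for lowering TLR4 on the macrophage surface, held its region in intron 1. There the signal was 32.3 with LPS and 80.4 with 3'SL in replicate 1, and 53.4 and 155 in replicate 2. Further from a start, a region in intron 2 of Kcnk13, a potassium channel gene, held 32.3 and 80.4 in replicate 1, and 23.5 and 88.3 in replicate 2. One in intron 14 of the collagen gene Col15a1 held 39.9 and 112 in replicate 1, and 17.1 and 41.0 in replicate 2. The lower of its values with 3'SL stood just above the higher without.

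The other 3 of the 8 highest regions were assigned to Cept1, Igf2r and 2310010J17Rik. The Cept1 region (10.6 kb from that start) lies inside Dram2 in GENCODE, and held 32.3 and 75.7 in replicate 1, and 24.5 and 86.7 in replicate 2. The Igf2r region lies in intron 2 of the antisense RNA Airn, and held 20.9 and 47.7 in replicate 1, and 43.8 and 121 in replicate 2. At the 2310010J17Rik promoter the values were 17.1 and 38.4 in replicate 1 and 57.6 and 129 in replicate 2, so the groups overlapped. For Cept1 and Igf2r they did not. The PBS library held 129 at the Rab7b region, 68.1 at the Adcy7 region, 35.4 at the Kcnk13 region, 11.8 at the Cept1 region, 41.8 at the Igf2r region and 197 at the 2310010J17Rik promoter. At the Col15a1 region it held 39.1. It was thus below both LPS values at Cept1, and between them at Igf2r and Col15a1. Low values with LPS alone favour the choice of a higher region, and high ones that of a lower region.

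Of the 8 named lower regions, the one with the largest log2 ratio in a single replicate lay at chr10:97389523-97389723, intergenic and 33.9 kb upstream of Mir3966. Signal was 137 with LPS and 60.6 with 3'SL in replicate 1, and 234 and 55.2 in replicate 2. Both LPS libraries stood above both libraries with 3'SL, with ratios of -1.16 (95% counting interval -1.72 to -0.64) and -2.06 (-2.64 to -1.56). The PBS library stood at 16.3 there. An intergenic region 29.1 kb downstream of the 1700016G22Rik start, at chr13:5828894-5829094, held 66.5 and 30.3 in replicate 1, and 291 and 75.7 in replicate 2. Its groups overlapped, since 3'SL with LPS replicate 2 stood above LPS replicate 1. The PBS library held 1.82 there.

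Il6, the cytokine gene that LPS induces through NF-kB, contributed a region 64.8 kb upstream at chr5:29948206-29948406, inside an exon of the GENCODE model Gm43386. p300 there was 81.7 with LPS and 40.8 with 3'SL in replicate 1, and 111 and 55.2 in replicate 2. The log2 ratios were -0.99 and -0.99, and the groups did not overlap. The counting intervals ran from -1.69 to -0.33 and from -1.6 to -0.44. A second Il6 region 0.19 kb upstream of the start held 39.9 and 23.3 in replicate 1, and 80.1 and 56.8 in replicate 2.

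Rassf3, a Ras association domain gene, had a region 12.6 kb upstream that held 110.2 and 46.6 in replicate 1, and 58.7 and 20.5 in replicate 2. Akap7 encodes an anchor of protein kinase A, and its region, 71.4 kb downstream of the start, is annotated as an RMER15 repeat. This region held 70.3 and 32.6 in replicate 1, and 174 and 71.0 in replicate 2, which overlap. The PBS library held 38.1 at the Rassf3 region and 10.9 at the Akap7 region. In intron 2 of the noncoding RNA Lncpint the signal was 150.1 and 67.5 in replicate 1, and 109.9 and 52.0 in replicate 2, and the groups did not overlap. Regions in intron 2 of Borcs5, a lysosome positioning gene, and intron 5 of Sh3glb1, an endophilin of autophagy, held lower values too. The Borcs5 region held 85.5 and 37.3 in replicate 1, and 191 and 94.6 in replicate 2, so its groups overlapped. The Sh3glb1 region held 76.0 and 38.4 in replicate 1, and 80.1 and 28.4 in replicate 2, without overlap.

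**Figure D1:**
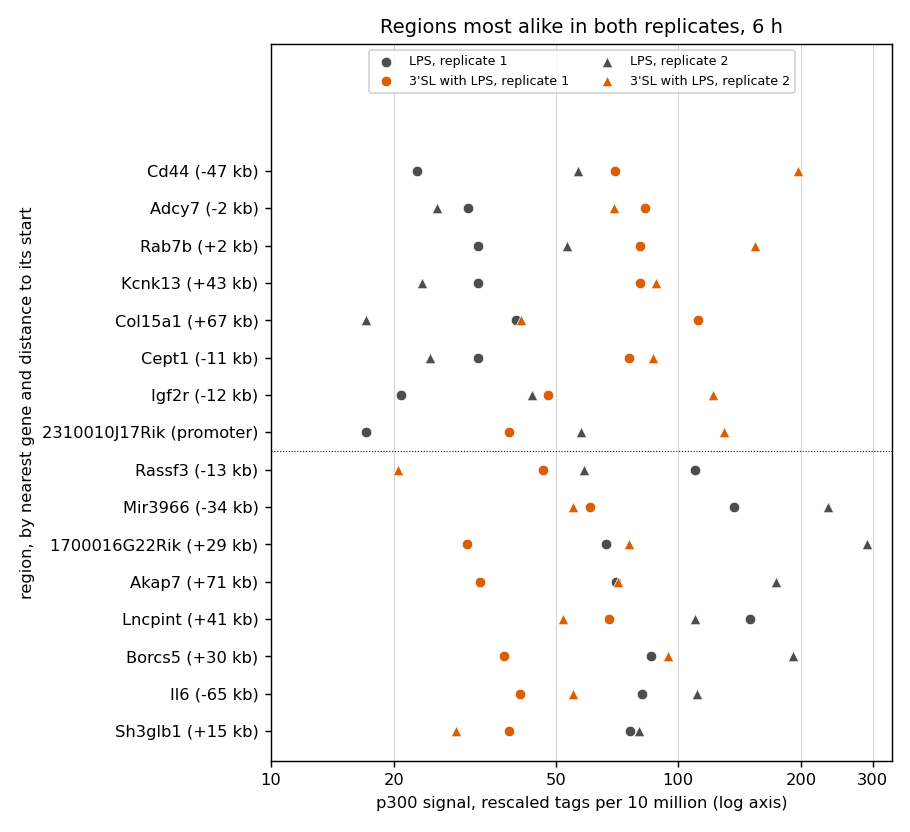
p300 signal (rescaled tags per 10000000, log axis) in the 4 libraries at the 8 highest and 8 lowest regions, labelled by nearest gene and distance to its start; grey is LPS, orange 3'SL with LPS, circles replicate 1 and triangles replicate 2. Within each symbol the orange point lies right of the grey one above the dotted line and left of it below.

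Over all regions, the replicates had little in common. Of 18908 regions averaging at least 20, 170 (0.899%) were at least 2-fold higher in both replicates and 101 (0.534%) at least 2-fold lower in both. In opposite directions by 2-fold were 119 (higher in replicate 1 only) and 65 (higher in replicate 2 only). The ratio had the same sign in both replicates at 52.9% of regions, and Pearson's r between the replicates' ratios was 0.07 over the 18908 regions, which share their libraries. The smallest tag count of an alike region was 6 at the median and 0 at the lowest. Stronger regions shared a sign more often. At an average of at least 50, 19 regions were higher in both and 6 lower in both against 6 and 1 in opposite directions. In the 255 regions averaging at least 200 the same sign was seen at 67.1% with r = 0.27, and none of these moved 2-fold in both. The 2-fold line passes between a region at 1.0002 and one at 0.9998 on the higher side, and between -1.0004 and -0.9987 on the lower side (log2, the smaller ratio).

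**Figure D2:**
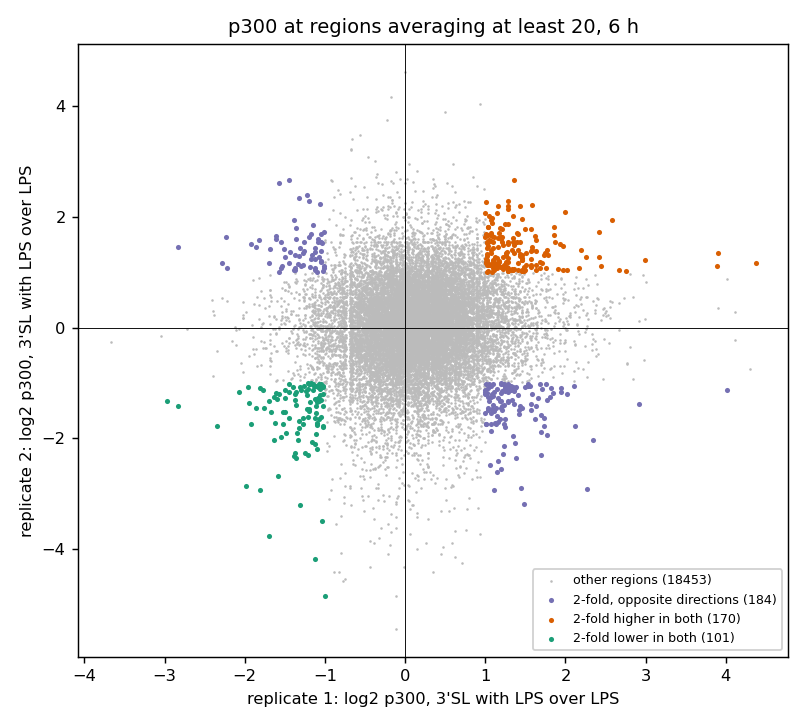
Log2 ratio of p300 with 3'SL and LPS over LPS at 6 h, replicate 1 on the x axis and replicate 2 on the y axis, for 18908 regions averaging at least 20. The cloud is close to round (r = 0.07), with 170 regions 2-fold higher in both (orange), 101 lower in both (green) and 184 in opposite directions (purple).

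With the scaling by total tags that the authors used, the balance is not the same. The ratio of all such regions then has a median of 0.68 in replicate 1 and 0.24 in replicate 2. With that scaling 882 regions were 2-fold higher in both against 18 lower, with 292 and 29 in opposite directions. With the common level used here those medians were 0.14 and 0.05. Directions below are therefore relative to the level of all regions or genes.

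H3K27ac was measured in other libraries and did not enter the choice of regions. It was read at the same sites in 1000 bp windows. No label says whether both marks came from the same cultures. limma called 0 of 77387 regions (0%) for H3K27ac between the same treatments at 6 h, with 478 at an unadjusted p under 0.05, and edgeR called 0, with 443. Of the 170 regions with higher p300, 71.8% had a higher fitted H3K27ac with 3'SL, against 46.0% of all 18898 regions measured. Of the 101 regions with lower p300, 28.7% did. H3K27ac was lower in both of its own replicates at 51 of those 101 (50.5%), against 35.1% of all regions. The median log2 ratio at the lower regions was -0.12 in replicate 1 and -0.27 in replicate 2, and at the higher ones 0.04 and 0.24, against -0.06 and -0.00 over all regions. Where p300 was higher in replicate 1 and lower in replicate 2, the H3K27ac medians were -0.04 and -0.12. Where it was the reverse, they were -0.01 and 0.21. A higher fitted H3K27ac was seen at 35.3% of the former set and 61.5% of the latter. H3K27ac was lower in both of its replicates at 41.2% and 23.1% of them. Shares away from those of all regions were thus also seen where p300 did not move alike.

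At the Mir3966 region H3K27ac was 145 with LPS and 92.3 with 3'SL in replicate 1, and 303 and 109.7 in replicate 2. The 1700016G22Rik region held 85.9 and 39.7 in replicate 1, and 133 and 52.3 in replicate 2, and the distal Il6 region held 44.0 and 28.2 in replicate 1, and 53.5 and 26.4 in replicate 2. These 3 were lower in both replicates, with fitted differences of -1.05 ± 0.60, -1.21 ± 0.62 and -0.81 ± 0.53 (SE, n = 2 against 2). The Akap7, Borcs5 and Sh3glb1 regions were lower in both too, with fits of -0.58 ± 0.70, -0.94 ± 0.85 and -0.63 ± 0.40. The Rassf3 region, first on the lower side, held 67.5 and 83.9 in replicate 1, and 40.4 and 23.2 in replicate 2, with a fit of -0.23 ± 0.77. At the Lncpint region the values were 462 and 454, then 698 and 622, with a fit of -0.10 ± 0.31. At the higher regions the fitted H3K27ac differences ran from 0.01 to 0.40. The Rab7b region held 437 and 434 in replicate 1 and 564 and 624 in replicate 2. The Cd44 region held 59.7 and 63.3, then 90.0 and 115.

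p300 at 2 h came from separate libraries of the same treatments. limma called 0 of 62225 regions at 2 h (0%; 673 unadjusted, edgeR 0 with 611) and 0 for the difference of the 6 h and 2 h differences (0%; 989 unadjusted, edgeR 0 with 833). A fitted 2 h value above 0 was seen at 55.3% of the higher set, 49.5% of the lower set and 51.5% of all regions. The medians in replicates 1 and 2 were -0.04 and 0.13 in the higher set, -0.11 and -0.10 in the lower set, and -0.05 and 0.07 over all regions. At the Cd44 region the 2 h difference was 0.43 ± 0.67, and at the distal Il6 region -0.16 ± 0.48 (SE, n = 2 against 2).

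**Figure D3:**
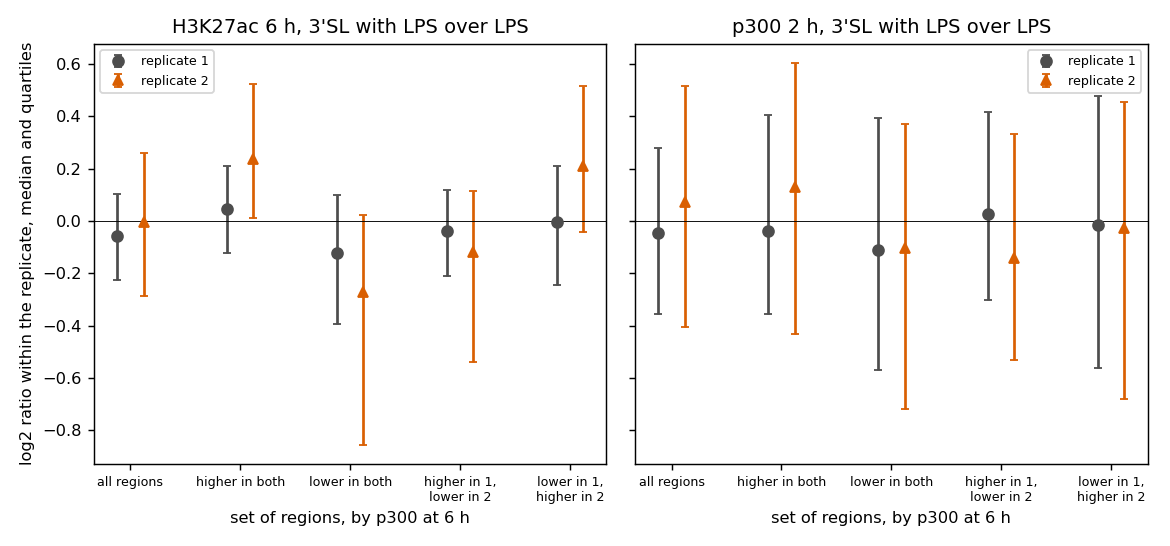
Median and quartiles of the log2 ratio of 3'SL with LPS over LPS within replicate 1 (grey circles) and 2 (orange triangles), for H3K27ac at 6 h (left) and p300 at 2 h (right), in regions sorted by p300 at 6 h. H3K27ac replicate 2 had medians of 0.24 and -0.27 in the sets higher and lower in both, and the quartile ranges of the sets overlap in both panels.

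The sets also differed in what LPS itself did to H3K27ac. They were chosen by ratios over the LPS libraries, so high p300 with LPS alone favours the lower set and low p300 the higher set. The part of this choice in the shares was not tested. H3K27ac at 2 h, LPS against PBS, was raised at 1397 (7.39%) and lowered at 721 (3.82%) of 18898 by limma at an adjusted p under 0.05. The treatment label of the LPS replicate 1 library of that contrast reads 1 h where its title reads 2 h. Of the 101 lower regions 18 (17.8%) were raised by LPS in this way and 0 lowered. Of the 170 higher regions 4 (2.35%) were raised and 11 (6.47%) lowered. Over all 1397 raised regions the median p300 ratio at 6 h was 0.07 in replicate 1 and -0.25 in replicate 2, where all regions stood at 0.14 and 0.05. Over the 721 lowered ones it was 0.26 and 0.28. In both replicates the raised class thus lay below all regions and the lowered class above, each by more in replicate 2. No test was made of these medians.

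Among the deposited peak lists made with the LXR agonist GW3965, the lower set overlapped LXR peaks at 35.6% of regions and SREBP peaks at 34.7%, against 60.6% and 54.7% of all regions and 62.9% and 55.3% of the higher set. In the 119 and 65 regions with opposite directions the shares were 42.0% and 50.8% for LXR peaks and 47.1% and 46.2% for SREBP peaks. Overlap with the p300 peaks of GW3965-treated cells was 60.4% in the lower set, 78.2% in the higher set, 66.4% and 64.6% in the opposite sets and 75.9% in all. Introns held 45.3% of the higher set and 41.6% of the lower, against 42.5% of all, with promoters (within 1 kb of a start) at 12.9% of the higher set and 18.8% of the lower, against 18.7% of all. An NF-kB match was present in 9.90% of lower and 4.71% of higher regions (10 and 8 regions), against 7.34% of all, and an AP-1 match in 21.8% and 28.8%. Members of the higher set numbered 2 each at Cd44, Cd47, Etv3, Pik3cb and Ston2, and of the lower set at Mir763 and Mtmr7. Of the 271 regions, 4 overlapped another of the set.

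Genes were then read as the sum of p300 over all regions nearest to their start. Of 6200 genes averaging at least 50, 62 (1%) were 1.5-fold higher in both replicates and 39 (0.629%) lower in both, with 27 and 36 in opposite directions. The 13 gene lists, described by sign, were set against all 16220 genes tested, of which 27.4% were higher and 24.8% lower in both replicates. No list held a called gene, and of all their members only Cxcl3 had an unadjusted p under 0.05. The lists were chosen with earlier results of these data known, and their medians carry no test. Many of the genes named below were chosen by these same ratios, so groups that do not overlap are no independent support for them.

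The list of NF-kB inflammatory genes had the lowest medians of the 13 in both replicates. Of 38 members measured, 16 (42.1%) were lower in both replicates and 1, the costimulatory receptor Cd40, was higher in both. The other 21 had opposite signs. The median ratio was -0.04 in replicate 1 and -0.32 in replicate 2, against 0.04 and -0.01 over all genes. With the authors' scaling the same list had medians of 0.51 and -0.19, with 11 higher and 3 lower in both, while all genes had medians of 0.56 and 0.11. Under both scalings its medians lay below those of all genes in each replicate, and the sign of its replicate 1 median itself turned.

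Saa3, an acute phase protein of macrophages, had the largest smaller ratio of the list. Its p300 signal over 2 regions was 67.3 with LPS and 36.9 with 3'SL in replicate 1, and 82.9 and 37.0 in replicate 2, with groups that did not overlap. The fitted difference was -1.0 ± 0.48 (SE, n = 2 against 2). Its neighbour Saa1, in a single region, held 119.6 and 64.5 in replicate 1, and 198 and 83.6 in replicate 2. Saa1 has a near copy, Saa2, and no label says how tags that match both were placed. Csf2, which encodes GM-CSF, held 125 and 63.4 in replicate 1, and 49.96 and 40.2 in replicate 2. Il12a, a subunit of interleukin 12, held 144 and 118 in replicate 1, and 134 and 90.1 in replicate 2. Summed over its 9 regions, Il6 held 181 and 135 in replicate 1, and 255 and 211 in replicate 2.

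For other members the size or the sign of the ratio depended on the replicate. Il1a, which encodes interleukin 1 alpha, held 398 and 386 in replicate 1 but 421 and 294 in replicate 2. Il1b stood at 577.5 and 543, then 521 and 452. Edn1, the endothelin precursor, held 450.4 and 457 in replicate 1 and 867 and 544 in replicate 2. Ccl5, a chemokine for T cells, held 656 and 737 in replicate 1, and 322 and 204 in replicate 2. The interferon-inducible chemokine Cxcl10 held 176 and 174, then 98.9 and 64.3. Nos2, the inducible nitric oxide synthase, held 404 and 431 in replicate 1, and 269.997 and 204 in replicate 2. Acod1, which makes itaconate, and Tnf likewise had opposite signs, with ratios of 0.68 and -0.63, and 0.31 and -0.17. In Ccl2, a monocyte chemokine, both ratios were -0.04. Of these 9 genes, Il1a, Il1b, Cxcl10 and Ccl2 had the same sign in both replicates.

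H3K27ac summed over the same genes gave the NF-kB list medians of -0.20 in replicate 1 and -0.54 in replicate 2, with 27 of 38 members lower in both and 2 higher in both. Over all genes 23.6% were lower and 33.9% higher in both. p300 at 2 h had 22 of 38 lower in both and 2 higher in both, against 25.8% and 25.2% of all genes. Interferon response genes at 2 h also had 14 of 32 lower in both and 3 higher. At 6 h their H3K27ac was lower in both for 13 and higher in both for 3.

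LXR targets had the largest share of members higher in both. Of 20 measured, 13 (65%) were higher in both replicates and 1, Nr1d1, lower in both, with medians of 0.38 and 0.14. Lpl, the lipoprotein lipase gene, held 301 and 468 in replicate 1, and 372 and 474 in replicate 2. Pltp, a phospholipid transfer protein, held 151 and 218 in replicate 1, and 156 and 209 in replicate 2. For both genes the 2 libraries with 3'SL were above the 2 without. Abca1, the cholesterol efflux pump, held 677 and 969 in replicate 1, and 1024 and 1127 in replicate 2. Scd2, a stearoyl-CoA desaturase, held 191 and 239.7 in replicate 1, and 359 and 465 in replicate 2. Abcg1, the other efflux pump, had opposite signs, 0.40 and -0.10. For H3K27ac 7 members were higher and 8 lower in both, and for p300 at 2 h 7 were higher and 4 lower. With the authors' scaling 17 of the 20 were higher in both at 6 h and 0 lower, with medians of 0.92 and 0.27, where 47.0% of all genes were higher in both and 9.11% lower.

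Macrophage identity genes were also mostly higher: 12 of 22 in both replicates, 3 lower, with medians of 0.22 and 0.19. Csf1r, the M-CSF receptor, held 327 and 508 in replicate 1, and 234 and 325 in replicate 2. Mrc1, the mannose receptor, held 131 and 190.1 in replicate 1, and 172 and 233 in replicate 2. For H3K27ac 6 of the 22 were higher and 10 lower in both. In the AP-1 and ATF list 7 of 14 were higher in both and 1 lower. Fos held 806 and 903 in replicate 1, and 862 and 1398 in replicate 2. TLR4 signalling genes had 8 of 21 higher and 4 lower. Map3k7, the kinase TAK1, held 84.1 and 127 in replicate 1, and 119 and 193 in replicate 2. Tlr4 itself held 484 and 561 in replicate 1, and 506 and 556 in replicate 2.

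**Figure D4:**
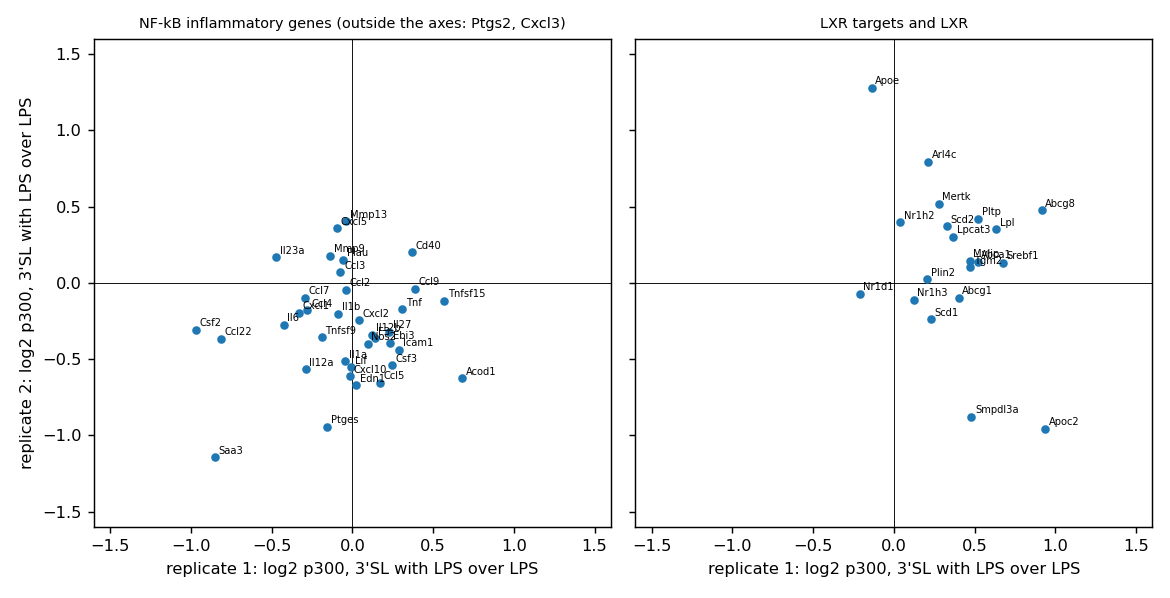
Log2 ratio of p300 summed per gene, replicate 1 on the x axis and replicate 2 on the y axis, for 38 NF-kB inflammatory genes (left) and 20 LXR genes (right); Ptgs2 and Cxcl3 lie outside the axes. Of the inflammatory genes 16 are lower in both and 1 higher in both, and of the LXR genes 1 and 13.

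The other lists are given by their counts, to be read against 27.4% higher and 24.8% lower of all genes. Cholesterol synthesis and SREBP genes had 9 of 25 higher and 5 lower in both. Mvd (mevalonate decarboxylase) held 39.2 and 77.2 in replicate 1, and 19.1 and 40.2 in replicate 2. Fatty acid synthesis genes had 4 of 14 higher and 1 lower. Interferon response genes had 10 of 32 higher and 8 lower. Feedback inhibitors had 5 of 16 each way. Cish, a suppressor of cytokine signalling, held 93.4 and 58.8 in replicate 1, and 78.7 and 53.1 in replicate 2. NF-kB subunits and inhibitors had 6 of 15 higher and 2 lower, with Nfkb1 at -0.06 and -0.09 and Nfkbia at -0.06 and 0.10. Coactivators and corepressors had 6 of 14 higher and 3 lower, with medians of 0.14 and 0.11, and Ep300, the gene of p300 itself, had ratios of 0.38 and 0.22. Siglec and sialic acid genes had 6 of 18 higher and 4 lower. Siglece, a sialic acid receptor of macrophages, held 84.1 and 61.1 in replicate 1, and 84.0 and 54.7 in replicate 2, with groups that did not overlap. Housekeeping genes had 4 of 15 higher and 3 lower, with medians of 0.36 and -0.17.

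**Figure D5:**
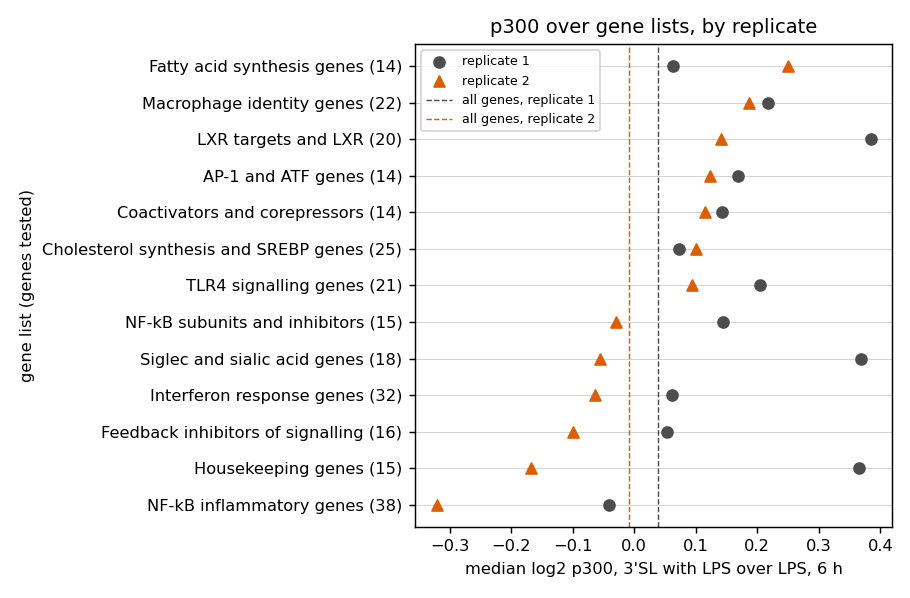
Median log2 ratio of p300 over the tested members of each list in replicate 1 (grey circles) and replicate 2 (orange triangles), with dashed lines at the medians of all 16220 genes (0.04 and -0.01). The NF-kB inflammatory list has the lowest replicate 2 median, at -0.32.

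Outside the lists, the genes most alike on the higher side included Klhdc4, with 50.5 and 103 in replicate 1 and 87.2 and 180.1 in replicate 2. Pira6, a paired immunoglobulin-like receptor of myeloid cells, held 44.9 and 88.7 in replicate 1, and 39.3 and 77.2 in replicate 2. Dio1, a thyroid hormone deiodinase with a single region, held 31.8 and 80.7 in replicate 1, and 42.5 and 78.8 in replicate 2. For all 3 genes the groups did not overlap. On the lower side Ankrd36, first by the smaller ratio, held 69.2 and 33.4 in replicate 1, and 78.7 and 28.9 in replicate 2. Zfp558, a zinc finger gene, held 194 and 106 in replicate 1, and 293 and 91.7 in replicate 2. It had the largest fitted difference of the 10 lowest genes. Its groups did not overlap. The fitted difference was -1.27 ± 0.40 (SE, n = 2 against 2), which did not pass the adjustment over all genes.

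The summed p300 signal at all 10 macrophage marker genes was 4228 and 4685 in replicate 1 and 3338 and 3881 in replicate 2. Gene by gene, 4 of the 10 were higher in both replicates, 2 lower in both and 4 opposite. Their median ratios were 0.11 and -0.005, so the sums do not describe every marker. At the 4 of 8 T cell markers measured the summed signal was 103 and 116, and 98.9 and 85.2. At the 6 of 8 neutrophil and precursor markers measured it was 153 and 214 in replicate 1 and 157 and 99.7 in replicate 2, opposite in direction, and their part in the results was not tested. No measured marker was at 0 in all 4 libraries. In bulk chromatin, fewer cells carrying a mark and less mark per cell cannot be told apart.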

How the data were processed

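p300 and H3K27ac tables hold signal that the authors made with HOMER, per the file headers: tags in 200 bp (p300) or 1000 bp (H3K27ac) around merged ATAC peaks, scaled to 10000000 tags. Bowtie2, HOMER, DESeq2 and mm10 are named in the submitters' processing notes, with versions not given in the sources used here. Whole tags were recovered for 100% of values within 0.05 tag. Over the tables read, 8 columns of per-sample values matched no sample and were not used. Regions were filtered with filterByExpr, rescaled by TMM and tested on log2(value + 1) with limma 3.58.1 (trended empirical Bayes, group means over all 14 p300 or 15 H3K27ac libraries, two-sided, Benjamini-Hochberg over all features). edgeR 4.0.16 and DESeq2 1.42.0 ran on recovered tags. The limma and edgeR fits of p300 regions at 6 h, without the block, were also run on simulated tags with known changes. The other fits were not. Apart from those changes, the simulated libraries shared the same mean profile, with no enrichment difference between replicates. The simulation thus cannot show what the fits could detect in these libraries. A gene is the sum over regions whose nearest start it is in the deposited table.

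Alike means at least 2-fold the same way in both replicates for regions averaging at least 20 (genes: 1.5-fold, at least 50). Genes and regions are named by rule: a fixed set of genes, up to 4 per list with the largest smaller ratio, the 10 highest and lowest genes, and the 8 highest and lowest regions; Cd40, Nr1d1 and Cxcl3 fall outside this rule and were chosen after their values were seen. Members and lists were chosen with earlier results of these data known. Replicate numbers were checked for pairing. The differences of replicate 1 from replicate 2 correlated at 0.20 to 0.38 in all 15 pairs of p300 groups, so same-numbered libraries deviated alike. Every replicate 1 p300 library was also less enriched than every replicate 2 one. The correlations thus cannot show whether libraries were matched one by one, and no label names a shared batch. The main fit has no block, and a fit with the replicate number as a block is given beside it. Replicates differed beyond sampling noise (chi-square per degree of freedom 6.27 and 7.04). The LXR, SREBP and p300 peak lists give positions; overlap was at least 1 bp. The p65 list was not used, because its positions on chromosome 1 reach 197011215, past the mm10 end at 195471971. Sequences come from the RefSeq mouse genome of the mm10 build.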

Additional observations from a re-analysis of the deposited data

How the results depend on the processing

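With the replicate block, without it, with edgeR or another pseudocount, scaling or filter, and leaving out in turn each library of the groups compared, limma or edgeR called 0 regions for p300 at 6 h, at 2 h, their difference and H3K27ac at 6 h, and 0 genes for p300 at 6 h. DESeq2 and the merged transcription factor regions, both run for p300 regions at 6 h, also gave 0. The replicate block changed no call.

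Counts of regions 2-fold alike depended on the setting. The 170 higher and 101 lower became 1018 and 516 at 1.5-fold, 19 and 6 at an average of at least 50, 882 and 18 with the authors' scaling, 76 and 49 with a pseudocount of 5, and 90 and 68 in the merged transcription factor regions. Chosen after seeing the data, subtracting the input signal gave 606 and 358, and leaving out satellite and simple repeat regions 170 and 99. Regions in opposite directions, higher in replicate 1 and then in replicate 2, numbered 119 and 65 in the main setting. At 1.5-fold they were 731 and 426, with the authors' scaling 292 and 29, and with a pseudocount of 5 42 and 32. In the merged transcription factor regions they were 94 and 46, and with the input subtracted 384 and 186. Named genes changed the sign of their fitted difference in 9 to 13 of 89 without 1 of the 4 libraries. Leaving out a replicate was not possible for the alike counts, which need both. Depth limits single regions: at an average of 20 to 50, LPS replicate 1 held 14 tags at the median. The overlap with p65 peaks was not run, since positions in that list run past the end of an mm10 chromosome.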
